A study of Mus musculus with 8 samples.

Results

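The genes described here are the plasma-membrane and vesicular carriers of amino acids and amino acid transmitters, taken as every protein-coding mouse gene whose symbol starts with Slc1a, Slc6a, Slc7a, Slc32a, Slc36a or Slc38a, without Slc38a4. The rule found 59 members among the 55487 gene identifiers in the tables. Symbols chose the members, but the same contrast as the one described below singled out Slc6a13 as the member with the largest increase. Its values are therefore given as a description with no test. Slc7a6os, a member by its prefix, encodes no carrier.

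The study measured RNA of pancreatic beta cells, which secrete insulin, after flow sorting of dispersed islets. The 4 Chd4KO libraries came from mice with a beta-cell deletion of Chd4 (Chd4Db), and the 4 Control libraries from mice labelled Control, with tamoxifen given to both groups. Chd4 is the ATP-driven subunit of the NuRD complex, which moves nucleosomes and removes histone acetyl groups. The Cre driver, the alleles that the Control mice carry, strain, sex and age are not given in the sources used here.

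Each library has its own animal number in its label, so the replicates were taken as separate mice, and every Control number is lower than every Chd4KO number. Any difference in litter, age or day that these numbers mark cannot be told apart from genotype. Reads in genes, recovered from the deposited values, ranged from 14.9 to 20.2 M (M, 1000000 reads) in Chd4KO libraries and from 16.4 to 41.0 M in Control libraries. Chd4 stood at 8.38, 6.18, 5.27 and 2.59 TPM (transcripts corrected for gene length and scaled to a total of 1000000 per library) in Chd4KO libraries, against 15.98, 13.4, 11.1 and 12.3 TPM in Control libraries. All Chd4KO values lay below all Control values, with a mean at 42.4% of the Control mean (exact permutation test, two-sided, p = 0.0286, the smallest that 4 against 4 libraries allow). In the fit over all genes the change of Chd4 did not pass the threshold (-1.18 ± 0.29 on the log2 scale, limma adjusted p = 0.0725).

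The 10 beta cell markers summed to 396394 to 652730 TPM in Chd4KO libraries and 429981 to 469400 TPM in Control libraries. Most of each sum was Ins1, Ins2 and Iapp, which had higher Chd4KO means with overlapping groups. Mafa and Slc2a2 were called lower. Nkx6-1, G6pc2 and Slc30a8 also had all Chd4KO values below all Control values but did not pass the threshold. Pdx1 and Ucn3 had lower Chd4KO means with overlapping groups. A pair of Chd4KO libraries stood apart. Insulin transcripts took 62.0% of the TPM in Chd4KO replicate 4, against 32.4 to 47.0% in the other Chd4KO libraries and 38.1 to 41.8% in Control libraries, and that library was the lowest of the 8 for 67.7% of all tested genes. The 10 acinar marker genes summed to 31207 TPM in Chd4KO replicate 2 and to at most 1162 TPM elsewhere. In sorted bulk RNA, fewer cells of a type and less RNA per cell cannot be told apart. TPM has a fixed total, so a larger insulin share lowers every other gene of that library.

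These carriers move amino acids and their derivatives across membranes by coupling to sodium, chloride, protons or exchange with another amino acid. The Slc1 family takes up glutamate and small neutral amino acids, and the Slc6 family takes up GABA, glycine, monoamines, taurine, creatine and several neutral amino acids. The Slc7 family holds cationic amino acid carriers and the light chains of heteromeric exchangers, while Slc36 and Slc38 are proton-coupled and sodium-coupled carriers. Beta cells make and release GABA, and amino acids entering through such carriers stimulate insulin secretion and feed mTORC1, a kinase that senses nutrients.

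The 300-base windows around the start sites of Slc6a13, Slc6a12 and Slc6a20a are shown because these carriers of GABA, betaine and proline are the ones the results turn on, and because Slc6a13 and Slc6a12 lie in tandem. The windows come from RefSeq on GRCm38.p6 and run from 250 bases before to 50 bases after an annotated start. Capitals mark CG dinucleotides.
Slc6a13, chr6:121300038-121300337, + strand: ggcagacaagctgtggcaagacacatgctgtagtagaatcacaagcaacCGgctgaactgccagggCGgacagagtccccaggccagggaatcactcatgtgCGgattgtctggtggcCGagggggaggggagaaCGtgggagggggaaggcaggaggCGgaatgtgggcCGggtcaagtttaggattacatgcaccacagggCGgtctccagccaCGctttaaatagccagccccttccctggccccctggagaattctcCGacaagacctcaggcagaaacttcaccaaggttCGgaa
Slc6a12, chr6:121342826-121343125, + strand: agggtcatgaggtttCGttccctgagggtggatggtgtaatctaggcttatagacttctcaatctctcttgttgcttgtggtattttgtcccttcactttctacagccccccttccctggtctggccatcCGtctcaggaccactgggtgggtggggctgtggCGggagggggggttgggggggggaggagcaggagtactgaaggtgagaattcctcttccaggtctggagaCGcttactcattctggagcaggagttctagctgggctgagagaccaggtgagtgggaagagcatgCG
Slc6a20a, chr9:123678783-123679082, - strand: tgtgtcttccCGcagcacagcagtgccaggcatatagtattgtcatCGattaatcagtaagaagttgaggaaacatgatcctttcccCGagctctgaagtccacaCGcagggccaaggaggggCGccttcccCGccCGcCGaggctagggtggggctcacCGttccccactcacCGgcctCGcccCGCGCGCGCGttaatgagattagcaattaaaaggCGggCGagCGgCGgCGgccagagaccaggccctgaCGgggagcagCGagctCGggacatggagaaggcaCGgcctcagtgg
The Slc6a13 window holds 11 CG dinucleotides, and 41.4% of the 32851 windows in the RefSeq table hold at least as many. The Slc6a12 window holds 5, which 62.0% of windows reach, and the Slc6a20a window holds 25, which 18.4% reach. The median was 7 over all windows and 17 over the 38 members with a window within 500 bases of their GENCODE start.

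The 5 short motifs listed here were searched on both strands of these windows. TTGCATCA, the core of the amino acid response element bound by Atf4, was found in 0.895% of all windows and in those of Slc1a4, Slc7a11 and Slc7a7 among the members. TGACGTCA, the cyclic AMP response element, was found in 1.79% of windows and among members in that of Slc38a6. TATAAA was found in 13.6% of windows, TGCTGAC, the core of the Mafa response element, in 4.67%, and TAATTA, the core of Pdx1 sites, in 5.29%. TATAAA was in the windows of Slc1a3 and Slc7a15, TGCTGAC in that of Slc7a15, and TAATTA in those of Slc1a3, Slc38a2, Slc6a16, Slc7a8 and Slc7a9. None of these motifs is in the 3 windows printed above, which says only that these letters are not there.

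Of the 59 members, 52 had a value above 0 in at least 1 library, and 29 passed the filter of at least 1 TPM in at least 4 libraries. Beside Slc6a13, which gets no test, 1 of these, Slc6a20a, was called higher in Chd4KO cells by limma (adjusted p under 0.05), and 0 were called lower. Over all 15189 tested genes, 1.53% were called higher and 1.44% lower, 2.97% in all. Of the tested members, 4 had all Chd4KO values above all Control values (Slc6a13, Slc6a20a, Slc6a17 and Slc7a4), a pattern that 3.54% of all tested genes showed. None of the tested members had all Chd4KO values below all Control values, a pattern seen in 11.3% of tested genes. Of the 23 members that were above 0 but missed the filter, 6 had all Chd4KO values above all Control values and 0 had all below. Of the 16277 genes of that kind, 2.49% lay all above and 2.66% all below. These shares come from the contrast that the rule names, so nothing is read from them about the members as a set.

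**Figure D1:**
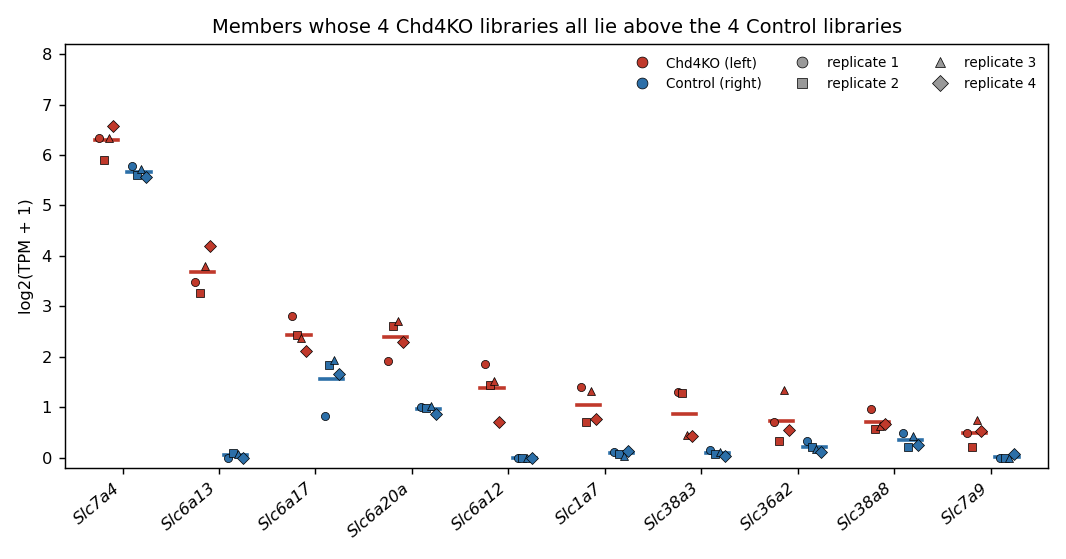
Log2(TPM + 1) of the 10 members whose 4 Chd4KO libraries (red, left) all lay above the 4 Control libraries (blue, right), with bars at group means and a symbol for each replicate. Slc6a13 shows the widest gap, with Chd4KO libraries between 8.58 and 17.3 TPM and Control libraries at 0 to 0.0743 TPM.

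Slc6a13 encodes the GABA and taurine carrier GAT2, which is best known from liver and kidney. It measured 10.2, 8.58, 12.9 and 17.3 TPM in Chd4KO libraries, against 0, 0.0743, 0.0587 and 0 TPM in Control libraries. In reads, that was 215, 176, 270 and 595 in Chd4KO libraries and 0, 4, 2 and 0 in Control libraries. Every Chd4KO library held the transcript and Control libraries were at or near 0, although 3 of the 4 Control libraries were deeper than any Chd4KO library. Chd4KO replicate 4, in which most genes were lowest, gave the highest Slc6a13 value. The mean was 12.2 ± 3.81 TPM in Chd4KO libraries and 0.0333 ± 0.0389 TPM in Control libraries (SD, n = 4 each). The change was 3.64 ± 0.22 on the log2(TPM + 1) scale (Chd4KO minus Control, with limma's standard error), and 3.59 without Chd4KO replicates 2 and 4. On this scale a Control level near 0 makes the size depend on the pseudocount of 1, and Slc6a13 passed the filter only through its Chd4KO libraries.

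Slc6a12 encodes BGT1, which carries betaine and GABA, and begins 5342 bases after the end of Slc6a13 on the same strand (Slc6a13 at chr6:121300227-121337733 and Slc6a12 at chr6:121343076-121365775, mm10). It measured 2.62, 1.72, 1.86 and 0.636 TPM in Chd4KO libraries and was listed at 0 in all 4 Control libraries. The reads behind these values were 58, 37, 41 and 23 in Chd4KO libraries. Slc6a12 was thus seen in Chd4KO libraries alone, and it missed the filter because 1 of them was under 1 TPM. In the fit without a filter it was called higher (1.38 ± 0.22 on the log2 scale, limma adjusted p = 0.0350), where 0.852% of 31466 genes were called higher. Slc6a12 was named after its values were seen, so this call is a description. Its level was 25.7, 20.003, 14.4 and 3.68% of the Slc6a13 level in the 4 Chd4KO libraries, so the pair did not keep a fixed ratio. Transcripts of Slc6a12 hold 0.140% of the 50-base stretches of Slc6a13 transcripts.

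The protein-coding genes on either side were read for comparison. Usp18, an interferon-induced protease that removes Isg15 from proteins and lies before Slc6a13, measured 137, 133, 74.0 and 72.0 TPM in Chd4KO libraries against 56.2, 47.4, 43.4 and 48.7 TPM in Control libraries. All Chd4KO values were above all Control values, but the change did not pass the threshold (1.01 ± 0.26, limma adjusted p = 0.0834), although it did in 6 of 19 alternatives, with adjusted p-values from 0.00301 to 0.238. Gm44148, a long non-coding gene on the opposite strand that overlaps Usp18, measured 349, 355, 213 and 209 TPM in Chd4KO libraries against 147, 134, 105 and 124 TPM in Control libraries. It was called higher (1.10 ± 0.24, limma adjusted p = 0.0469), and its reads cannot be told apart from those of Usp18 where they overlap. Gm44148 was named after its values were seen, so this call is a description. Tuba8, a tubulin gene, changed by 0.99 ± 0.34 (adjusted p = 0.201) and Pex26, a peroxisome assembly gene, by -0.08 ± 0.38 (adjusted p = 0.920). Iqsec3, on the far side of Slc6a12, did not exceed 0.0312 TPM in any library. Chd4 itself starts 3758 kb from the end of Slc6a13 on the same chromosome, which carries 5 members in all.

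**Figure D2:**
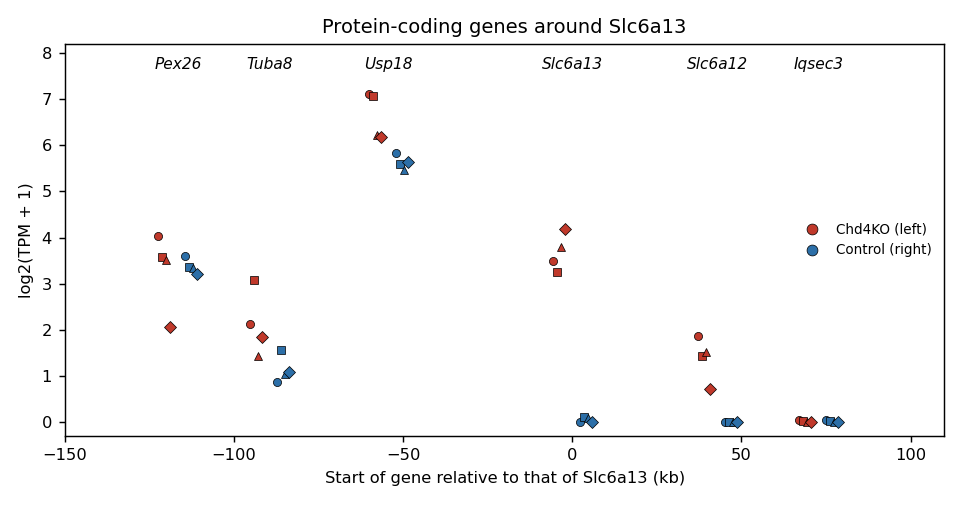
Log2(TPM + 1) of the protein-coding genes around Slc6a13, placed by the distance of their starts from that of Slc6a13 in kb, with 4 Chd4KO libraries (red, left) and 4 Control libraries (blue, right) for each gene. Slc6a13 and Slc6a12 have Control libraries at or near 0, while Iqsec3 is near 0 in both groups and Pex26 overlaps between them.

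Summed marker genes of other cell types differed between the groups to varying degrees. The 5 hepatic markers summed to 7.34 to 10.5 TPM in Chd4KO libraries and 0.611 to 1.71 TPM in Control libraries, with Cyp2e1 at 0 in all 8. They did not move together. Alb and Serpina1a had all Chd4KO values above all Control values. Apoa1 overlapped, with a lower mean in Chd4KO (0.522 TPM) than in Control libraries (0.818 TPM). Fgb stood at 4.79 TPM in Chd4KO replicate 2 and at 0 in Chd4KO replicates 3 and 4. Serpina1a, a secreted protease inhibitor and the 1 hepatic marker that passed the filter, did so only through its Chd4KO libraries, so it gets no test. The 4 kidney tubule markers, Lrp2, Slc34a1, Slc5a12 and Umod, summed to 0.397 to 0.766 TPM in Chd4KO libraries and 0.0115 to 0.0912 TPM in Control libraries. Slc5a12 was at 0 in all 8, and Lrp2 did not exceed 0.00826 TPM. Umod stood at 0.615 TPM in Chd4KO replicate 2 and at 0 elsewhere. The sums in the other libraries were thus almost wholly Slc34a1, with means of 0.403 TPM in Chd4KO and 0.0366 TPM in Control libraries. The 6 leukocyte markers summed to 33.9 to 79.0 TPM in Chd4KO libraries and 17.2 to 29.1 TPM in Control libraries, with Cd68 and Fcer1g called higher among 3 tested. Most of each sum was Fcer1g, with means of 48.1 TPM in Chd4KO and 15.8 TPM in Control libraries. Ptprc went the other way (means of 0.0857 and 0.351 TPM), as did Itgam (0.00704 and 0.0112 TPM). Lyz2 and Adgre1 had higher Chd4KO means, and the groups of all but Cd68 and Fcer1g overlapped. The 7 glial and neuronal markers summed to 60.6 to 128 TPM in Chd4KO libraries and 78.4 to 88.6 TPM in Control libraries. Sox10 was at 0 in all 8. The 7 mesenchymal markers summed to 0.432 to 0.969 TPM in Chd4KO and 0.148 to 0.282 TPM in Control libraries. Col1a2 had a lower mean in Chd4KO. The 5 endothelial markers summed to 6.31 to 7.78 TPM in Chd4KO and 5.52 to 5.70 TPM in Control libraries. Egfl7 lay all above Control and Esam all below. The delta, PP and ductal sums overlapped, and Rbp4 of delta cells was called higher. Cftr, a ductal marker, lay all below Control but passed the filter only through its Control libraries, so it gets no test. The part of these cell types in the Slc6a13 and Slc6a12 values was not tested.

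Slc6a11, a GABA carrier known from brain, did not exceed 0.0506 TPM in any library. Slc32a1, which loads GABA and glycine into vesicles, was listed at 0 throughout. Slc6a6, the taurine carrier, was the most abundant Slc6 member at 58.0, 52.3, 45.1 and 28.1 TPM in Chd4KO libraries and 65.9, 59.0, 51.1 and 48.0 TPM in Control libraries. The groups overlapped, and the change did not pass the threshold (-0.32 ± 0.25, limma adjusted p = 0.515). Slc6a8, the creatine carrier, averaged 9.20 ± 4.64 TPM in Chd4KO and 8.85 ± 1.45 TPM in Control libraries (SD, n = 4 each) and overlapped too.

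Slc6a20a, which carries proline and other imino acids, was the called member. It measured 2.77, 5.13, 5.56 and 3.89 TPM in Chd4KO libraries, against 1.002, 0.991, 1.04 and 0.813 TPM in Control libraries. The Control libraries were all close to 1 TPM and the lowest Chd4KO library was 2.77 TPM, so the groups did not overlap. Control replicates 2 and 4 were under 1 TPM, so Slc6a20a met the filter of 4 libraries only with the help of its Chd4KO libraries. It rose by 1.41 ± 0.21 on the log2(TPM + 1) scale (limma adjusted p = 0.0088), and by 1.34 without Chd4KO replicates 2 and 4 (adjusted p = 0.0243). It was called in all 18 alternatives in which it could be tested, among them the fit without a filter (limma adjusted p = 0.0124). Gm17120, a non-coding gene on the opposite strand within Slc6a20a, was also higher, at 6.72 ± 1.61 TPM in Chd4KO and 1.54 ± 0.822 TPM in Control libraries (SD, n = 4 each; 1.66 ± 0.30, limma adjusted p = 0.0205). Gm17120 was named after its values were seen, so its adjusted p-value is a description. The libraries do not mark strand, so reads in the overlap of Slc6a20a and Gm17120 cannot be told apart.

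Its neighbour and close relative Slc6a20b shares 7.24% of the 50-base stretches of its transcripts with Slc6a20a, which shares 15.3% of its own, so the split of reads between them is uncertain. Slc6a20b measured 13.2, 19.1, 13.6 and 4.19 TPM in Chd4KO libraries and 14.3, 12.9, 13.1 and 11.6 TPM in Control libraries. The Control libraries lay within the Chd4KO range, and the change of -0.20 ± 0.38 (limma adjusted p = 0.775) turned positive under median-of-ratios and quantile scaling. In TPM, Slc6a20b was the more abundant of the pair in every library.

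Slc6a17, a vesicular carrier of neutral amino acids known from neurons, measured 5.998, 4.40, 4.19 and 3.35 TPM in Chd4KO libraries, against 0.769, 2.60, 2.84 and 2.15 TPM in Control libraries. All Chd4KO libraries were higher than all Control libraries, but Control replicate 1 lay well below its group and the change did not pass the threshold (0.87 ± 0.28, limma adjusted p = 0.166). It was not called in any of 18 alternatives, where adjusted p-values spanned 0.0505 to 0.335. Slc6a19, the neutral amino acid carrier of gut and kidney, and Slc6a9, the glycine carrier GlyT1, averaged 5.51 and 4.296 TPM in Chd4KO libraries and 5.22 and 2.60 TPM in Control libraries, with overlapping groups. Slc6a14 and Slc6a15 stayed at or under 0.577 TPM, and the monoamine carriers Slc6a2, Slc6a3 and Slc6a4 at or under 0.0937 TPM. The remaining Slc6 members, Slc6a5, Slc6a7, Slc6a16, Slc6a18 and Slc6a21, did not exceed 0.0383 TPM.

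**Figure D3:**
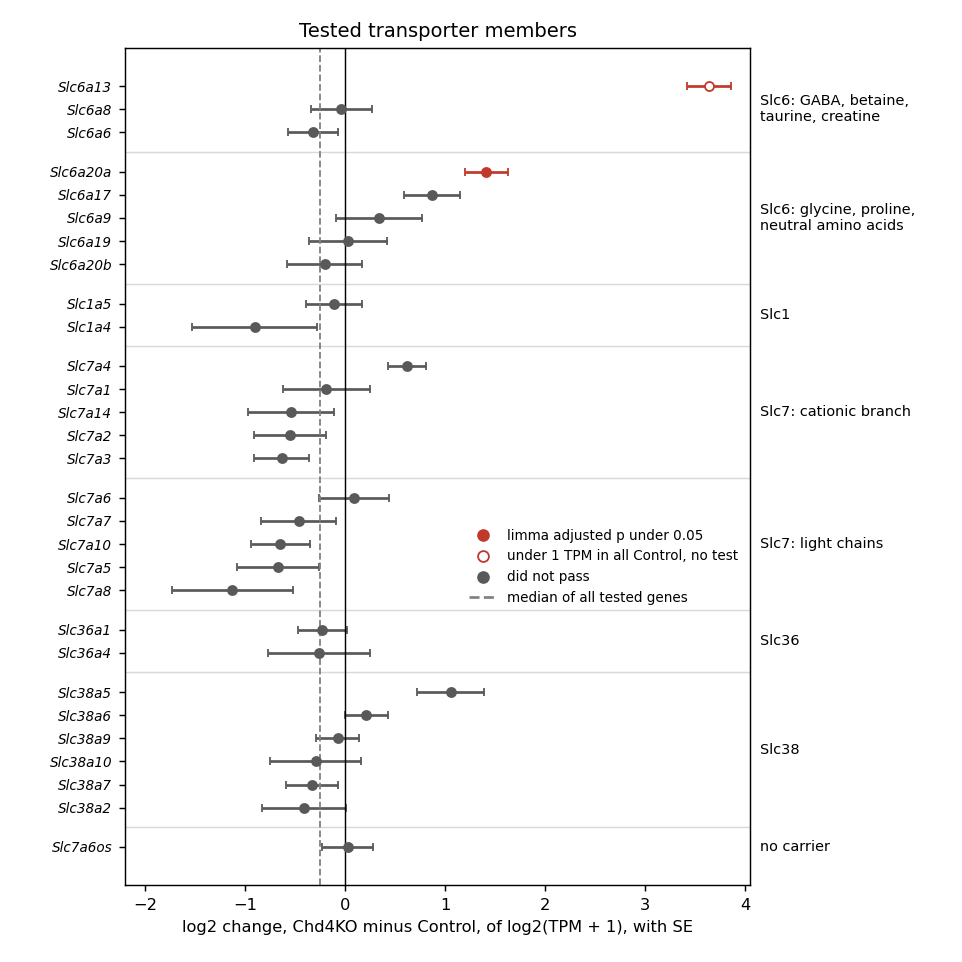
Change of the 29 tested members (Chd4KO minus Control, log2(TPM + 1) scale, bars 1 standard error from limma), grouped by family and role, with the called member in red, Slc6a13 as a hollow symbol with no test, and the median of all tested genes as a dashed line. Slc6a13 at 3.64 and Slc6a20a at 1.41 stand to the right, and members of the Slc7 light chains reach -1.13.

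In the Slc1 family the abundant members are the neutral amino acid carriers. Slc1a4, or ASCT1, which exchanges serine and alanine, measured 24.8, 24.7, 7.59 and 2.04 TPM in Chd4KO libraries and 23.6, 23.1, 16.3 and 19.8 TPM in Control libraries. Chd4KO replicates 1 and 2 lay above all Control libraries and replicates 3 and 4 below them, and the change of -0.91 ± 0.63 did not pass the threshold (limma adjusted p = 0.478), with -0.27 without Chd4KO replicate 4. Slc1a5, or ASCT2, a glutamine exchanger, measured 3.80, 3.46, 2.49 and 1.09 TPM in Chd4KO libraries and 2.30, 3.38, 3.27 and 2.46 TPM in Control libraries. The groups overlapped, and its change of -0.11 ± 0.28 (limma adjusted p = 0.834) turned positive under median-of-ratios and quantile scaling.

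The glutamate carriers of Slc1 were low, with Slc1a1, Slc1a2, Slc1a3 and Slc1a6 at or under 0.217 TPM in every library. Slc1a7, the glutamate carrier of the retina, was the exception at 1.64, 0.632, 1.48 and 0.703 TPM in Chd4KO libraries, against 0.0840, 0.0482, 0.0254 and 0.0932 TPM in Control libraries. The groups did not overlap, with 15 to 40 reads in Chd4KO libraries and 1 to 5 in Control libraries. It missed the filter, and in the fit without one it was called higher (0.96 ± 0.17, limma adjusted p = 0.0479). In that fit 0.852% of 31466 genes were called higher. Slc1a7 was named after its values were seen, so this call is a description.

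The cationic branch of Slc7 held the most abundant member with separated groups. Slc7a4, for which amino acid transport has not been shown, measured 79.4, 59.1, 80.1 and 94.6 TPM in Chd4KO libraries, against 53.9, 47.9, 51.7 and 46.5 TPM in Control libraries. Each Chd4KO library was above each Control library, and the mean was 78.3 ± 14.6 TPM in Chd4KO and 49.97 ± 3.40 TPM in Control libraries (SD, n = 4 each). The change did not pass the threshold (0.62 ± 0.19, limma adjusted p = 0.148), but did with array weights (adjusted p = 0.0238) and without Chd4KO replicates 2 and 4 (adjusted p = 0.0413), in 2 of 19 alternatives whose adjusted p-values reached 0.381. P2rx6, an ATP-gated channel gene on the opposite strand, overlaps Slc7a4 and averaged 7.45 TPM in Chd4KO and 4.02 TPM in Control libraries.

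The other 4 cationic members, the arginine and lysine carriers Slc7a1, Slc7a2 and Slc7a3 and the lysosomal Slc7a14, were not called. Slc7a14 was the most abundant of these at 105, 66.9, 53.9 and 19.99 TPM in Chd4KO libraries and 83.8, 81.7, 64.3 and 80.4 TPM in Control libraries. Chd4KO replicate 1 was the highest of the 8 libraries and replicate 4 the lowest. Summed over the 5 cationic members, the level was 159 ± 38.8 TPM in Chd4KO and 152 ± 10.9 TPM in Control libraries (SD, n = 4 each).

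The light chains of Slc7 join a heavy chain, Slc3a1 or Slc3a2, to form exchangers of large neutral, cationic or cystine substrates. Slc7a8, the light chain LAT2, measured 185, 85.2, 104 and 19.6 TPM in Chd4KO libraries and 248, 196, 108 and 147 TPM in Control libraries. Chd4KO replicates 2, 3 and 4 lay below all Control libraries, with replicate 1 within the Control range. Its change of -1.13 ± 0.61 was the most negative among tested members and did not pass the threshold (limma adjusted p = 0.388), with -0.50 without Chd4KO replicate 4.

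Slc7a5, the light chain LAT1 that carries leucine, measured 148, 132, 81.8 and 35.4 TPM in Chd4KO libraries and 152, 151, 118 and 138 TPM in Control libraries. The groups overlapped in replicates 1 and 2 of Chd4KO, and the change of -0.67 ± 0.41 did not pass the threshold (limma adjusted p = 0.431). Slc7a6, Slc7a7 and Slc7a10 averaged 9.92, 4.17 and 7.496 TPM in Chd4KO libraries and 8.46, 6.22 and 11.9 TPM in Control libraries, all with overlapping groups. The cystine carrier Slc7a11 reached at most 0.629 TPM and Slc7a15 at most 1.14 TPM, and Slc7a12 and Slc7a13 were listed at 0. Slc7a9, which pairs with Slc3a1 in kidney, stood at 0.412, 0.159, 0.673 and 0.442 TPM in Chd4KO libraries and at 0, 0, 0 and 0.0468 TPM in Control libraries, from 3 to 14 reads in Chd4KO libraries and at most 2 in Control libraries. Those groups did not overlap, but in the fit without a filter Slc7a9 was not called (limma adjusted p = 0.101). The non-carrier Slc7a6os averaged 9.60 ± 3.08 TPM in Chd4KO and 9.03 ± 0.422 TPM in Control libraries (SD, n = 4 each).

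**Figure D4:**
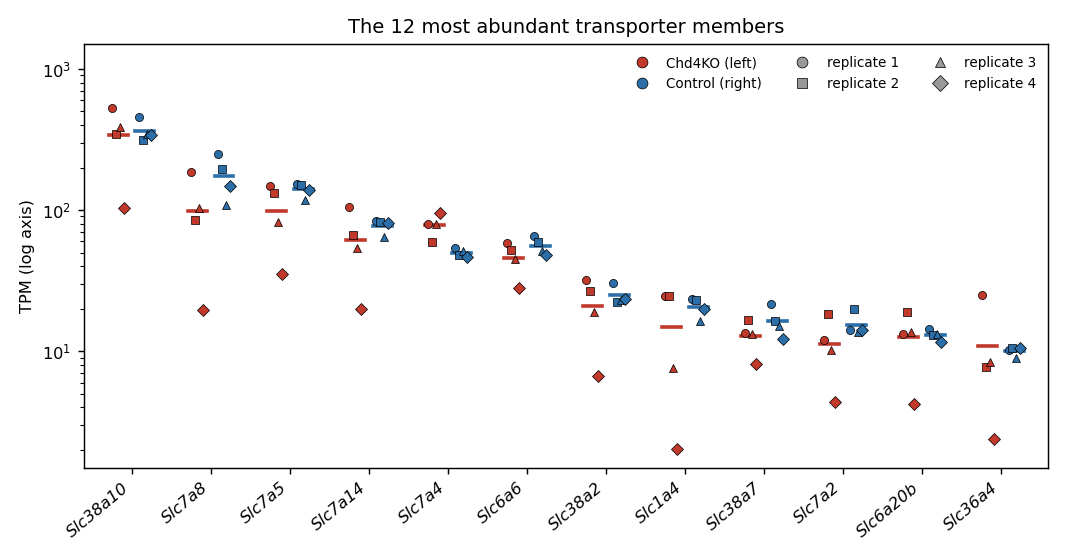
TPM on a log axis of the 12 members with the highest mean over the 8 libraries, Chd4KO in red on the left and Control in blue on the right, with bars at group means and a symbol for each replicate. Slc7a4 is the only one of the 12 with all Chd4KO libraries above all Control libraries, and Chd4KO replicate 4 (diamond) is the lowest library for the other 11.

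The Slc36 family couples amino acid transport to protons, partly in lysosomes. Slc36a4 measured 24.8, 7.71, 8.35 and 2.38 TPM in Chd4KO libraries and 10.1, 10.5, 8.97 and 10.5 TPM in Control libraries. Chd4KO replicate 1 lay above all Control libraries and the other 3 below them, and the change was -0.26 ± 0.51 (limma adjusted p = 0.788), which turned positive without Chd4KO replicate 4 (0.22) and under quantile scaling. Slc36a1, or PAT1, measured 3.63, 2.79, 2.98 and 1.37 TPM in Chd4KO libraries and 4.14, 3.06, 2.44 and 3.34 TPM in Control libraries. Its groups overlapped (-0.23 ± 0.25, limma adjusted p = 0.624). Slc36a2, known from kidney, ranged over 0.261 to 1.53 TPM in Chd4KO libraries and 0.0770 to 0.260 TPM in Control libraries without overlap but with the nearest values almost equal, and was not called in the fit without a filter (limma adjusted p = 0.337). Slc36a3 did not exceed 0.0266 TPM.

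The Slc38 family was led by Slc38a10, a little-studied glutamate and glutamine carrier of neurons and other cells. It was the most abundant of all members, at 532, 348, 386 and 104 TPM in Chd4KO libraries and 455, 313, 348 and 341 TPM in Control libraries. Chd4KO replicates 1, 2 and 3 lay within or above the Control range and replicate 4 far below it. The change of -0.29 ± 0.45 (limma adjusted p = 0.729) became 0.20 without Chd4KO replicate 4. Slc38a2, the stress-responsive SNAT2, measured 31.99, 26.7, 18.8 and 6.65 TPM in Chd4KO libraries and 30.3, 22.4, 23.1 and 23.5 TPM in Control libraries. Its groups overlapped (-0.41 ± 0.42, limma adjusted p = 0.606), and the change was 0.03 without Chd4KO replicate 4.

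Slc38a5, the glutamine carrier SNAT5 that is known from mouse alpha cells, measured 14.2, 4.295, 7.79 and 12.1 TPM in Chd4KO libraries and 4.35, 2.72, 4.91 and 3.24 TPM in Control libraries. Chd4KO replicate 2 lay within the Control range and the other 3 Chd4KO libraries above it. The change did not pass the threshold (1.05 ± 0.34, limma adjusted p = 0.164) but did without Chd4KO replicate 2. The 7 alpha cell markers summed to 836 to 4222 TPM in Chd4KO libraries and 1506 to 2895 TPM in Control libraries, lowest in Chd4KO replicate 2, and their part in the Slc38a5 values was not tested. Slc38a3, the SNAT3 glutamine carrier of liver and kidney, stood at 1.46, 1.42, 0.368 and 0.352 TPM in Chd4KO libraries and 0.107, 0.0511, 0.0808 and 0.0237 TPM in Control libraries. Slc38a3 and Slc38a8 (0.485 to 0.946 TPM in Chd4KO and 0.154 to 0.403 TPM in Control libraries) did not overlap between groups and missed the filter, and neither was called in the fit without one (limma adjusted p = 0.190 for Slc38a3 and 0.200 for Slc38a8). Slc38a6, Slc38a7 and the lysosomal arginine sensor Slc38a9 overlapped between groups, and Slc38a1 and Slc38a11 stayed at or under 0.196 TPM.

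The 29 tested members had a median change of -0.20, with 10 positive and 19 negative, beside a median of -0.25 and 25.2% positive over all tested genes. Without Chd4KO replicate 4 the medians were 0.17 for the members and -0.05 for all genes, with 18 members positive and 11 negative. With median-of-ratios scaling they were 0.03 and -0.02. Changes relative to the median of all tested genes were 3.89 for Slc6a13, 1.67 for Slc6a20a, 1.12 for Slc6a17, 0.87 for Slc7a4 and -0.88 for Slc7a8. By family, the median was 0.18 for the 8 tested Slc6 members, -0.18 for 6 of Slc38, -0.24 for 2 of Slc36, -0.51 for 2 of Slc1 and -0.54 for 11 of Slc7. Chd4KO replicate 4 was the lowest library for 23 of the 29 tested members, beside 67.7% of all tested genes. The summed level of all members was 913 ± 397.5 TPM in Chd4KO and 1041 ± 154 TPM in Control libraries (SD, n = 4 each), with 399.6 TPM in Chd4KO replicate 4.

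The genes that act with these carriers were counted over 11 lists. Over all 15189 tested genes, 1.53% were called higher and 1.44% lower. Each list holds few tested genes, so nothing is read from its count about the list as a whole. The heavy chains and trafficking partners were abundant and none of 4 was called. Slc3a2 averaged 223 ± 103 TPM in Chd4KO and 265 ± 37.9 TPM in Control libraries (SD, n = 4 each), and Slc3a1 averaged 50.4 ± 24.9 TPM in Chd4KO and 82.1 ± 14.5 TPM in Control libraries. Cltrn, which brings Slc6 carriers to the membrane in kidney, averaged 552 ± 167 TPM in Chd4KO and 733 ± 21.9 TPM in Control libraries.

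Of 6 genes of GABA synthesis and breakdown, 5 were tested, 0 were called higher and 1 lower. Maob, a monoamine oxidase that also acts in GABA synthesis from putrescine, measured 149, 100.2, 125 and 75.1 TPM in Chd4KO libraries and 273, 279, 245 and 263 TPM in Control libraries. The groups were far apart, and it fell by 1.27 ± 0.23 on the log2 scale (limma adjusted p = 0.0199), a call kept in 13 of 19 alternatives with adjusted p up to 0.0860. Aldh9a1, an aldehyde dehydrogenase of the same route, averaged 116 TPM in Chd4KO and 189 TPM in Control libraries, and Abat, which breaks GABA down, 46.3 TPM in Chd4KO and 56.4 TPM in Control libraries. Neither was called.

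Of 26 GABA and glycine receptor genes, 4 were tested and 4 were at 0 in every library. Glrb, the glycine receptor beta subunit, measured 2.61, 5.35, 6.07 and 5.08 TPM in Chd4KO libraries and 17.4, 15.5, 16.9 and 14.5 TPM in Control libraries. All Chd4KO values were below all Control values, and Glrb fell by 1.60 ± 0.23 on the log2 scale (limma adjusted p = 0.0083, called in 18 of 19 alternatives). Of 24 glutamate receptor genes, 7 passed the filter, and 1 of them, Grm4, did so only through its Chd4KO libraries, so its call is set by the filter and no test is given. Grm4, a metabotropic glutamate receptor, measured 1.73, 1.52, 3.31 and 3.23 TPM in Chd4KO libraries and 0.496, 0.153, 0.185 and 0.0419 TPM in Control libraries. All Chd4KO values were above all Control values, and the other 6 genes were not called.

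Of 7 vesicular transmitter carriers of other families, 3 were tested and 1 was called lower. Slc18b1, a vesicular polyamine carrier, measured 1.78, 2.22, 1.83 and 1.17 TPM in Chd4KO libraries and 7.37, 6.29, 5.29 and 5.40 TPM in Control libraries. The groups were well apart, and it fell by 1.37 ± 0.19 on the log2 scale (limma adjusted p = 0.0065, called in 19 of 19 alternatives). Of 15 amino acid carriers of other families, 11 were tested and 1 was called. Slc16a10, the aromatic amino acid carrier TAT1, measured 9.79, 9.62, 11.4 and 7.17 TPM in Chd4KO libraries and 17.6, 21.4, 18.2 and 20.5 TPM in Control libraries. It fell by 0.97 ± 0.19 (limma adjusted p = 0.0276), a call kept in 8 of 19 alternatives with adjusted p up to 0.118.

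**Figure D5:**
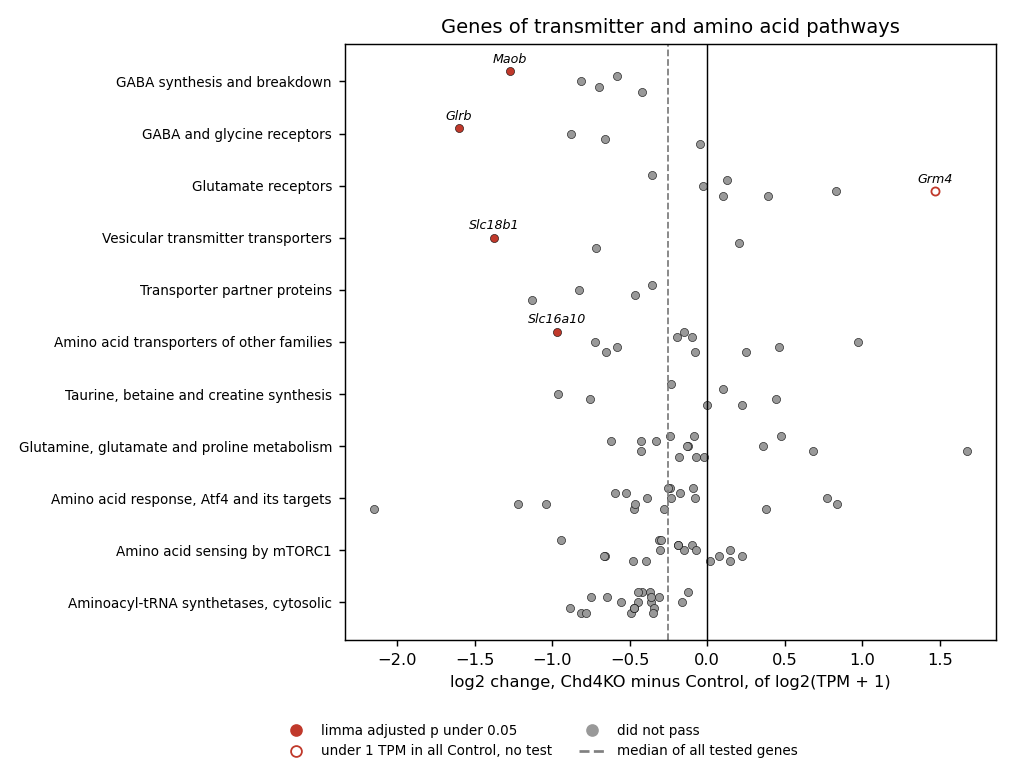
Change of each tested gene (Chd4KO minus Control, log2(TPM + 1) scale) in 11 lists of genes that act with the carriers, with called genes named in red and the median of all tested genes as a dashed line. Grm4, the hollow symbol at 1.47, passed the filter only through Chd4KO libraries and has no test, and Glrb at -1.60, Slc18b1 at -1.37, Maob at -1.27 and Slc16a10 at -0.97 are on the left.

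The metabolic and sensing lists held no called gene, where 2.97% of all tested genes were called. These were taurine, betaine and creatine synthesis (7 of 9 genes tested), glutamine, glutamate and proline metabolism (15 of 16), Atf4, the factor that switches on amino acid carrier genes on starvation, with its targets (18 of 18), amino acid sensing by mTORC1 (18 of 19 matched) and the cytosolic aminoacyl-tRNA synthetases (20 of 20). Their median changes were 0.0020, -0.13, -0.27, -0.19 and -0.44 in that order, beside -0.25 for all tested genes. Asns, which makes asparagine and is an Atf4 target, averaged 225 TPM in Chd4KO and 237 TPM in Control libraries. Gatm, which starts creatine synthesis, averaged 172 TPM in Chd4KO and 130 TPM in Control libraries. These counts are not a test of any list, and a gene that missed the threshold was not shown to be unchanged.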

How the data were processed

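RNA-seq of sorted beta cells from 4 Chd4KO and 4 Control mice was analysed from 8 deposited tables, 1 per library. The authors deposited TPM (transcripts per 1000000) for 55487 Ensembl identifiers, each table summing to 1000000. The submitters' processing notes name HISAT2, HTSeq, DESeq2, Trimmomatic and FastQC and the build mm10, without saying which did what, and the sources used here give no annotation release. Per the labels' protocols, only RNA with an integrity number above 8.0 went into SMART-Seq v4 cDNA and Nextera XT libraries, which do not mark strand. TPM removes gene length and fixes the total, so a library rich in insulin transcripts has lower values elsewhere.

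Symbols, positions and exon lengths came from GENCODE M21, in which 55227 identifiers (99.5%) were found. TPM times merged exon length was a whole multiple of 1 step per library for 98.5 to 98.7% of values above 0 (tolerance 0.05 of a read), which gave the reads and depths printed. These depths, 16.8 ± 2.39 M in Chd4KO and 29.5 ± 10.7 M in Control libraries (SD, n = 4 each), limit low members to few reads.

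Genes were tested with limma 3.58.1 (R 4.3.3), fitted to log2(TPM + 1) over all genes with at least 1 TPM in at least 4 libraries, genotype as the only term, two-sided, with Benjamini-Hochberg adjustment over all 15189 tested genes and a threshold of 0.05. Changes are Chd4KO minus Control on that scale, which understates low genes, and ± after a change is limma's standard error. Tests on simulated data with the same number of genes recovered 0.597% of simulated 1.5-fold changes, 21.5% at 2-fold and 63.9% at 4-fold. Changes were placed on the log2(TPM + 1) scale, only in genes with a mean of at least 5 TPM. Noise was drawn separately for each gene and library, with no shift shared within a library. The rates therefore do not hold for members under 5 TPM. Python 3.11.15 with pandas 2.3.3, scipy 1.17.1 and matplotlib 3.10.9 made the tables, the exact permutation test and the figures. Promoter windows came from RefSeq on GRCm38.p6.

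Members, gene lists, marker lists and tests were chosen with earlier results of these data known. Values in every library are given for Slc6a13, called members, tested members whose groups do not overlap and the 2 most abundant members of each family. They are also given for called genes of each list, Chd4 and Usp18. The partner proteins Slc3a1, Slc3a2 and Cltrn are given by group mean. The neighbours Tuba8 and Pex26 are given by change, and Iqsec3 by its highest value. Slc6a12, Slc1a7, Slc7a9, Slc38a3, Slc38a5, Slc7a14, Gm17120 and Gm44148 were added after their values were seen. Alternatives covered the pseudocount, the filter, scaling, weights, a variance trend, a replicate block, voom on recovered reads, and leaving out libraries. Individual values of 2 genes counted here are not reported.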

Additional observations from a re-analysis of the deposited data

Results flagged for a closer look

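In 3 of 86 groups of 4 libraries, 1 library lay so far from the other 3 that its gap to the nearest passed Dixon's 95% critical value. Chance flags about 1 in 20 such groups, and no cause was tested. Slc38a2, the amino acid carrier SNAT2, measured 30.3 TPM in Control replicate 1 and 22.4 to 23.5 TPM in the other Control libraries. Gabbr2, a GABA-B receptor subunit, measured 64.9 TPM in Control replicate 1 and 36.1 to 39.8 TPM in the other Control libraries. Atf3, a stress-induced factor of the amino acid response list, measured 539.8 TPM in Chd4KO replicate 2 and 19.9 to 41.2 TPM in the other Chd4KO libraries. In Control libraries Atf3 measured 20.4, 591, 765 and 703 TPM, so it was low in 1 Control library and high in 1 Chd4KO library, and its change did not pass the threshold (-2.15 ± 1.33, limma adjusted p = 0.438).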

How the results depend on the processing

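Over all genes, limma called 451 (233 higher and 218 lower). Apart from fits leaving out 1 library, counts more than 1.5 times away were as follows. They were 220 (98 and 122) at a minimum TPM of 5, 723 (444 and 279) with median-of-ratios scaling and 755 (466 and 289) with quantile normalisation. With array weights the count was 1364 (578 and 786), and with a replicate block 274 (158 and 116). It was 785 without Chd4KO replicates 2 and 4, and 784 (498 and 286) with voom. The share of calls that were higher was 51.7%, against 42.4% with array weights, 44.5% at a minimum TPM of 5, 61.4% with median-of-ratios, 61.7% with quantile normalisation, 63.5% with voom and 47.7 to 70.9% leaving out each library. Leaving out each library gave 171 (without Control replicate 4) to 829 (without Chd4KO replicate 4). Members past the threshold, with Slc6a13 counted as a description and no test, were 2. They were 4 with no filter, where Slc6a12 and Slc1a7 were added. At a minimum TPM of 5 there was 1, Slc6a13 itself, and Slc6a20a was not tested. They were 3 with array weights and 3 without Chd4KO replicates 2 and 4 (Slc7a4 added in both), and 2 to 3 leaving out each library. Slc6a13 is in each of these counts, so nothing is read from them about Slc6a13. Chd4 passed the threshold with median-of-ratios (-0.94), hormone-free scaling (-1.11), quantile (-0.90), array weights (-0.97), voom (-1.03) and in some fits leaving out a library (-1.37 to -0.91). Same-numbered libraries correlated at -0.0244, 0.425, 0.0773 and 0.0377, and only replicate 2 matched its own number best, so the numbers were not taken as pairs. With the replicate block, Slc6a20a was still called. Changes that did not pass the threshold turned positive as follows. Slc1a5 was 0.063 with median-of-ratios, 0.073 with quantile, 0.10 without Chd4KO replicates 2 and 4, 0.10 with voom and -0.26 to 0.14 leaving out each library. Slc36a1 was 0.031 without Chd4KO replicates 2 and 4. Slc36a4 was 0.0097 with quantile, 0.50 without replicates 2 and 4 and -0.76 to 0.22 leaving out each library. Slc38a10 was 0.15 with array weights, 0.33 without replicates 2 and 4, 0.0045 with voom and -0.58 to 0.20 leaving out each library, and Slc38a2 was -0.67 to 0.034. Slc6a20b was 0.046 with median-of-ratios, 0.071 with quantile, 0.15 with array weights, 0.042 without replicates 2 and 4, 0.068 with voom and -0.45 to 0.20 leaving out each library. Slc6a13 ranged from 3.47 to 8.63 (the highest with voom) and Slc6a20a from 1.30 to 2.40. Of 451 single-gene values under alternatives, 399 kept direction and side of the threshold, and the causes were not tested. Members with few reads, such as Slc7a9, are limited by depth.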
